A study of Mus musculus with 2 samples.

Results

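The miR-130 and miR-301 family of the mouse was described here through 4 miRNA genes, Mir130a, Mir130b, Mir301 and Mir301b, out of 2202 miRNA genes counted in the adrenal gland. The 4 genes were found by their symbols in the GENCODE M21 annotation. They were selected on a shared seed and with their levels and the ratio between the libraries already known, so these values are given as a description and without a test. The tissue was adrenal gland from 14-day-old B6CASTF1/J males, an F1 hybrid whose reads were counted on the mm10 reference assembly. Small RNA was sequenced in 1 group of 2 libraries, biological replicates 1 and 2, with no treatment, no mutant allele and no control group named. The label of each biosample names 3 males and both point to the same donor record. No source used here says if animals were pooled, so the spread between the libraries may be partly technical.

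A miRNA is cut from a hairpin precursor and guides the silencing complex to messenger RNAs that pair with its seed, bases 2 to 8 from the 5′ end. Members of the family carry the same seed on the 3p arm of the hairpin, so they can pair with the same sites, while the bases behind the seed differ between the miR-130 and miR-301 types. The family is known for repressing PPARγ, a regulator of fat cell formation, and miR-130a is known as a miRNA of growing blood vessels.

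The mature 3p arms are shown first because they hold the seed that defines the family, in capitals. The sequences are from RefSeq on GRCm38.p6, the assembly that mm10 stands for, and all 4 genes matched that table. It held no mature 3p arm for Mir301b, so that stretch is read from the hairpin further below.
mmu-miR-130a-3p: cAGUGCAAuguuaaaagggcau
mmu-miR-130b-3p: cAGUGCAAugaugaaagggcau
mmu-miR-301a-3p: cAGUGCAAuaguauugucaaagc
The first is from Mir130a, the second from Mir130b and the third from Mir301. Counted from 1 at the 5′ end, miR-130b-3p differed from miR-130a-3p by 2 substitutions, U11A and A13G, over 22 bases. Over the same length miR-301a-3p differed from miR-130a-3p at 10 positions, the first being G10A, so the first 9 bases were common to these 3 arms.

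Mir301b and Mir130b are shown as whole hairpins because they lie side by side on the same strand and had unlike ratios between the libraries. The seed is again in capitals, and in each hairpin it was located by its sequence.
Mir301b: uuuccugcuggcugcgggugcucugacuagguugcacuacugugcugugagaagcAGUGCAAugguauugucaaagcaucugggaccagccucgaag
Mir130b: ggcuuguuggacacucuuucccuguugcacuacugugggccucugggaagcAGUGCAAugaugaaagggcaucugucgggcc
Read over the 23 bases from the base before the seed, the Mir301b hairpin differed from that of Mir301 by a single substitution, A10G, and from that of Mir130b at 10 positions. No 20-base stretch of any of the 4 hairpins occurred in another counted miRNA gene. The longest stretch shared between members was 16 bases, between Mir301 and Mir301b. Mir130a shared 17 bases with Mir6389. No source used here says if mismatches were allowed in counting, and a passage of reads between Mir301 and Mir301b was not tested.

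The 5p arms of the same hairpins carry other seeds, shown because reads of either arm were counted for 1 hairpin and the files do not separate them.
mmu-miR-130a-5p: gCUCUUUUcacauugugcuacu
mmu-miR-130b-5p: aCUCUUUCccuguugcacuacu
mmu-miR-301a-5p: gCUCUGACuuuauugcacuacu
mmu-miR-301b-5p: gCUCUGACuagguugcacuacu
The 5p arms of the miR-301 type shared their seed and differed by 3 substitutions, U10A, U11G and A12G. Those of the miR-130 type differed at 7 positions, with U8C inside the seed.

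The 4 genes lie at 3 places in the genome. Mir130a (ENSMUSG00000065484.1) lies on the minus strand at chr2:84741115-84741178 of mm10, between genes, with its nearest neighbour Gm19426 on the same strand 990 bases away and Ypel4 on the other strand 2459 bases away. Mir301 (ENSMUSG00000065589.1) lies at chr11:87113004-87113089 on the plus strand, in an intron of Ska2, which encodes a protein of the spindle and kinetochore complex, on the strand of that gene. Mir301b (ENSMUSG00000076288.1) at chr16:17124400-17124496 and Mir130b (ENSMUSG00000065572.1) at chr16:17124061-17124142 lie on the minus strand with 257 bases between them. Both are inside the gene 2610318N02Rik on its strand, and in each of the 3 annotated transcripts that span them they are intronic.

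**Figure D1:**
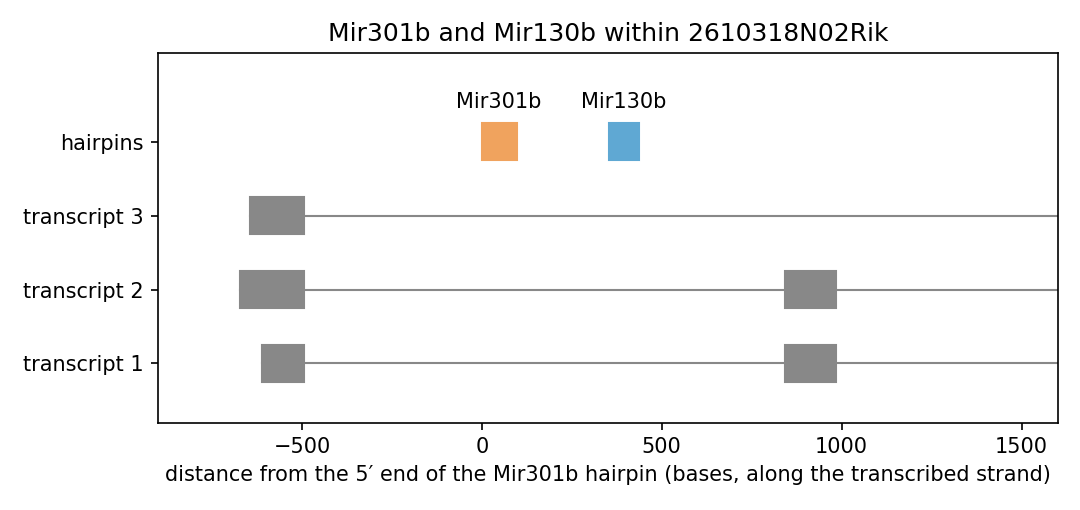
Map of Mir301b and Mir130b within the protein-coding gene 2610318N02Rik, with distance in bases from the 5′ end of the Mir301b hairpin along the transcribed strand on the x axis. Grey boxes are exons and lines are introns of the 3 annotated transcripts that span the hairpins, and coloured boxes are the hairpins, which lie 257 bases apart in an intron.

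Replicate 1 held 3024662 counts on the sense strand of miRNA genes and replicate 2 held 3464837. Levels are in CPM, a count divided by this total and multiplied by 1000000. They are per hairpin and not per base of length, since a count comes from a short mature miRNA and the 3p arms shown differ in length by a single base. Exact Clopper-Pearson intervals at 95%, like all intervals here, are meant for counting error only. Copies made by PCR are not independent molecules, so even for that error the intervals may be too narrow. Each library held all 4 genes at 2 CPM or more, the limit for calling a gene detected, which 16.5% of all miRNA genes met in both. As a check of what the tissue held, the neuroendocrine list of miR-375 and miR-7 genes came to 31136 and 34282 CPM. The hepatocyte and gut list, given in full further below, came to 3857 and 49815 CPM, above the neuroendocrine list in replicate 2. The 5 striated muscle genes summed to 6.28 and 9.52 CPM; Mir206 was the only one detected, at 5.95 and 9.52 CPM, and Mir1a-1, Mir133a-1 and Mir133a-2 had no count in either library.

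Together the 4 genes held 6716 CPM in replicate 1 and 13593 CPM in replicate 2, a mean of 10154 ± 4863 (SD, n = 2). As a share of miRNA counts this was 0.672% in replicate 1 (interval 0.662 to 0.681) and 1.36% in replicate 2 (1.35 to 1.37). The family was thus 2.02-fold higher in replicate 2 (exact conditional interval 1.99 to 2.06). Of that difference of 6877 CPM, Mir130a made up 71.8% and Mir301 27.3%, and the pair on chromosome 16 the small remainder. In tissue libraries such as these, fewer cells of a type and less RNA per cell cannot be told apart.

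Of the miR-130 type, Mir130a was the most abundant member. It stood at 5883 CPM in replicate 1 and 10820 CPM in replicate 2, a mean of 8352 ± 3491 (SD, n = 2), and ranked 32nd and 23rd of the 2202 genes. Mir130b, its closest relative in the 3p arm, stood at 447 CPM in replicate 1 and 483 CPM in replicate 2, a mean of 465 ± 25.1 (SD, n = 2), and ranked 118th and 110th. Mir130b had the smallest SD relative to its mean. Its counting intervals, 424 to 472 CPM in replicate 1 and 460 to 507 CPM in replicate 2, overlapped. The interval of its ratio between the libraries, 1.004 to 1.16, still lay just above 1. Mir130a exceeded Mir130b 13.2-fold in replicate 1 (12.4 to 13.9) and 22.4-fold in replicate 2 (21.3 to 23.5).

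Of the miR-301 type, Mir301 stood at 376 CPM in replicate 1 and 2251 CPM in replicate 2, a mean of 1313 ± 1326 (SD, n = 2). Its rank moved from 123rd to 51st, and its SD was as large as its mean. Mir301b was the least abundant member, at 9.92 CPM in replicate 1 from 30 counts and 38.4 CPM in replicate 2 from 133 counts, a mean of 24.2 ± 20.1 (SD, n = 2). Its interval was 6.69 to 14.2 CPM in replicate 1 and 32.1 to 45.5 CPM in replicate 2, so the libraries did not overlap in counting error. It ranked 298th and 236th.

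**Figure D2:**
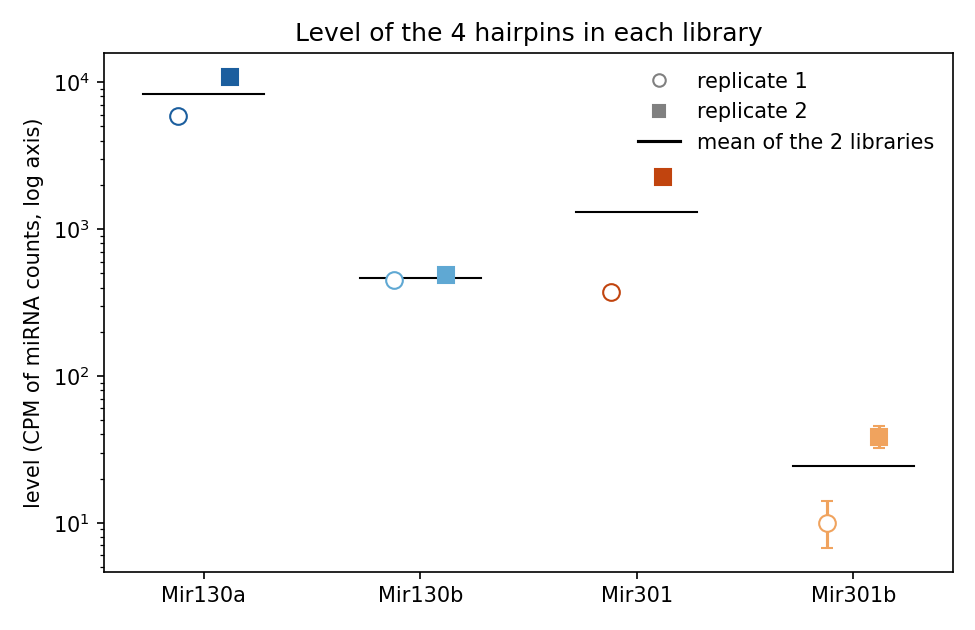
Level of each of the 4 hairpins in CPM on a log axis, with open circles for replicate 1, filled squares for replicate 2, black lines for the mean and error bars for exact 95% counting intervals, most of which are smaller than the symbols. Mir130a lies above all others in both libraries and Mir301b below them, while Mir301 moves from 376 to 2251 CPM past Mir130b, which stays between 447 and 483 CPM.

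By mean level the order was Mir130a, Mir301, Mir130b and Mir301b. The lower library of Mir130a, at 5883 CPM, exceeded every value of the other 3 members, and the higher library of Mir301b, at 38.4 CPM, was below all of theirs. Mir301 and Mir130b did not differ beyond their spread and exchanged places: Mir301 was 0.84 of Mir130b in replicate 1 (0.775 to 0.909) and 4.66-fold above it in replicate 2 (4.42 to 4.92).

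The make-up of the family therefore differed between the libraries, a measure that does not depend on how the libraries are scaled. Mir130a held 87.6% of the family's counts (87.1 to 88.0) in the first library and 79.6% in the second (79.2 to 80.0). Mir301 held 5.59% in replicate 1 (5.28 to 5.92) and 16.6% in replicate 2 (16.2 to 16.9). Mir130b went the other way, from 6.66% (6.32 to 7.01) to 3.55% (3.39 to 3.72). Mir301b held 0.148% (0.0997 to 0.211) and 0.282% (0.237 to 0.335). Taken by type, Mir301 and Mir301b together held 5.74% of the family in replicate 1 and 16.8% in replicate 2.

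**Figure D3:**
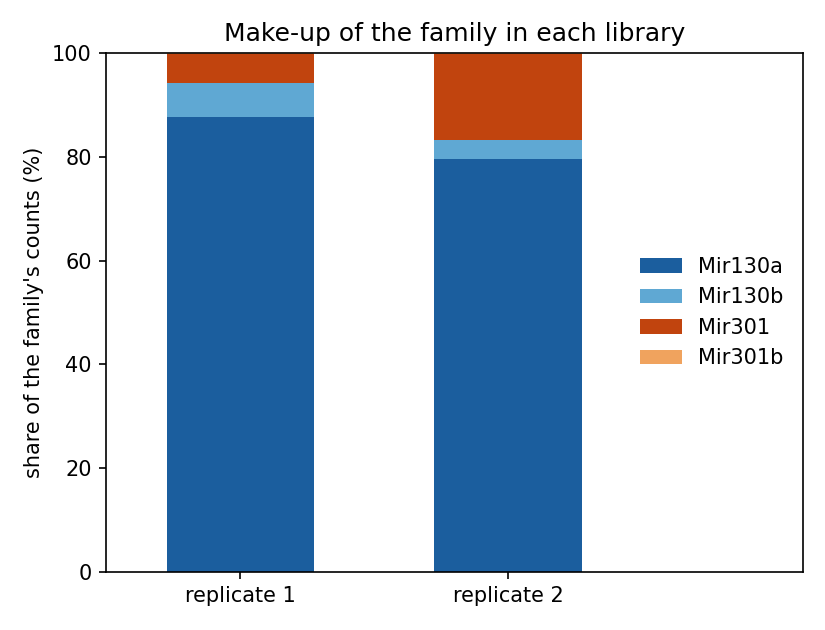
Share of the family's counts held by each member, in percent, as stacked bars for replicate 1 and replicate 2. The Mir301 part widens from 5.59% to 16.6% while the Mir130a part narrows from 87.6% to 79.6%, and Mir301b, at 0.148% and 0.282%, is too thin to be seen.

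Each member was compared between the libraries, which are replicates of 1 group, so a ratio describes these libraries and no condition. Mir301 was 5.99-fold higher in replicate 2 (exact conditional interval 5.63 to 6.38). Mir301b was 3.87-fold higher (2.59 to 5.96), Mir130a 1.84-fold higher (1.81 to 1.87) and Mir130b 1.08-fold higher (1.004 to 1.16). Of the 413 miRNA genes whose counts over both libraries reached 10, 21.8% differed by 2-fold or more in either direction, 11.4% were 2-fold or more higher in replicate 2, and 51.1% were higher there by any amount. Of the members 2 of 4 were 2-fold or more higher in replicate 2, none was 2-fold or more lower, and 4 of 4 were higher by any amount. Counted without regard to strand, Mir130b had a ratio of 0.983. It had no read on the opposite strand, so its own counts stayed the same and only the library totals changed. The median log2 ratio was 1.42 over the 4 members and 0.03 over the 413 genes. Since these ratios were in view when the members were chosen, nothing is read from their count against that background.

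The difference within the chromosome 16 pair was seen in the counts of each library. Mir130b had 45.1 counts for each count of Mir301b in replicate 1 (31.4 to 67.1) and 12.6 in replicate 2 (10.5 to 15.1), intervals that did not overlap. For Mir301 and Mir301b, whose hairpins differ by 1 base in the 23-base stretch with the seed, the ratio was 37.9 in replicate 1 (26.4 to 56.4) and 58.6 in replicate 2 (49.4 to 70.1), with intervals that did overlap.

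**Figure D4:**
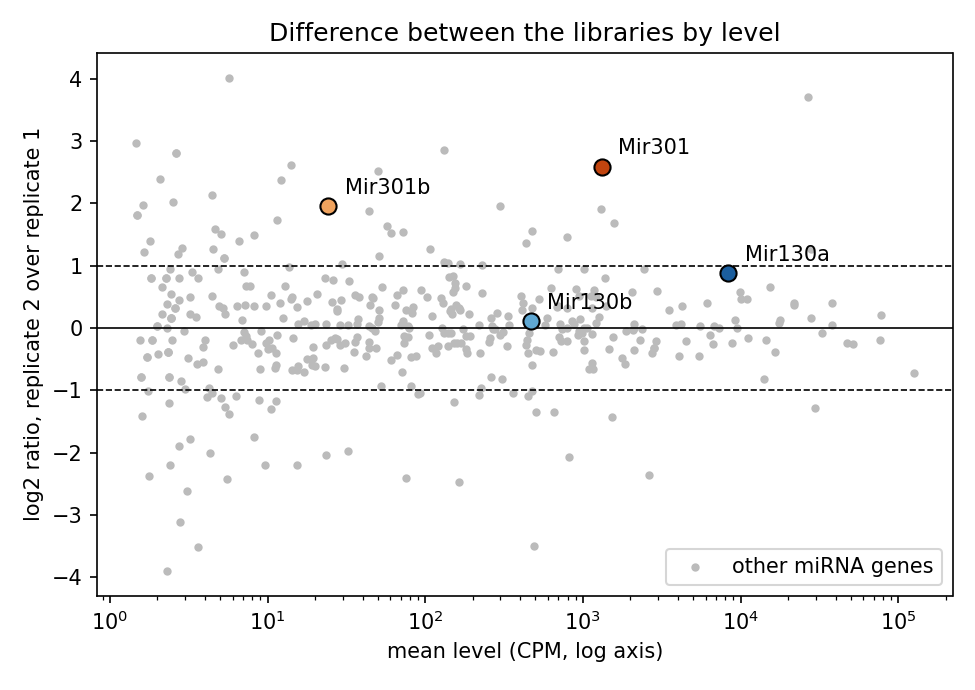
Log2 ratio of replicate 2 over replicate 1 against mean level in CPM (log axis) for the 413 miRNA genes with 10 or more counts, with the 4 members labelled and dashed lines at 2-fold in either direction. Mir301 and Mir301b lie above the upper dashed line, Mir130a lies below it, and Mir130b lies near 0.

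Markers of other cell types also differed between the libraries, and their part in the ratios of the members was not tested. The hepatocyte and gut list, Mir122, Mir192, Mir194-1 and Mir194-2, summed to 3857 CPM in replicate 1 and 49815 in replicate 2, with 3 of 4 genes 2-fold or more higher there and none at 0 in both. Mir122 alone, the main miRNA of hepatocytes, went from 3786 to 49474 CPM. The epithelial list summed to 814 and 1575 CPM, with 4 of 7 genes 2-fold or more higher in replicate 2 and none 2-fold or more lower. Among the higher ones, Mir205 was at only 1.65 and 7.22 CPM and Mir200a at 3.97 and 24.2 CPM. Most of the epithelial sum was Mir203, at 697 and 1344 CPM, which was 1.93-fold higher. Mir200c went the other way with a ratio of 0.52, and Mir141 had a ratio of 0.97. Sums were lower in replicate 2 for the endothelial list, at 155649 and 94739 CPM, the erythroid list, at 43959 and 19202, and the white blood cell list, at 4878 and 2610. The endothelial sum was nearly all Mir126a. Of its 2 genes none was 2-fold or more lower, and Mir126b, at only 2.31 and 6.93 CPM, was 2.99-fold higher. Of 3 erythroid genes 1 was 2-fold or more lower, Mir451a, while Mir144 had a ratio of 0.98. Of 5 white blood cell genes 2 were 2-fold or more lower and 1, Mir223, was higher, 2.88-fold. The mesenchymal and smooth muscle list stood at 53199 and 45553 CPM. With Mir122 left out of the library totals, Mir301 was 6.28-fold and Mir130a 1.93-fold higher in replicate 2.

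The seed AGUGCAA was also found in 4 other mouse miRNA genes of the RefSeq table, Mir130c, Mir721, Mir6341 and Mir6389. All 4 were in the counted annotation and none had a count in either library, which allows at most 0.992 CPM in replicate 1 and 0.866 CPM in replicate 2 at 3 counts. Mir6389 is shown because it shares the longest stretch with Mir130a.
mmu-miR-6389: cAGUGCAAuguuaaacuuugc
Among the hairpins found to carry this seed, only the 4 members had assigned counts. The search used the mature arms of the RefSeq table, so a hairpin whose arm is missing there, as for Mir301b, would not have been found. Reads that mapped to several places were assigned to none of the hairpins and made up 27.5% and 29.4% of the reads.

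Seeds with a run of 6 bases in common with this seed occurred in 8 other genes, of which miR-148a and miR-19a are shown with their own seeds in capitals.
mmu-miR-148a-3p: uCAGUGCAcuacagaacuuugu
mmu-miR-19a-3p: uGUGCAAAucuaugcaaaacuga
Of these 8 genes 6 had 10 or more counts, and 5 of the 6 were higher in replicate 2, 3 of them 2-fold or more, with a median ratio of 2.29, where 51.1% of all tested genes were higher by any amount and 11.4% by 2-fold or more. That median lay between the ratios of Mir19a and Mir19b-1, which both had few counts. For Mir19a, with 5 and 10 counts, the interval of the ratio reached from 0.544 to 6.51. For Mir19b-1, with 8 and 26 counts, it reached from 1.25 to 7.25. The gene that was lower in replicate 2 was Mir350, whose 5p arm holds the run, at 154 CPM in replicate 1 and 126 CPM in replicate 2. The list was chosen with earlier results of these data known, among them the high ratio of Mir148a. Mir148a, Mir148b and Mir152 also belong to 1 family. Nothing is therefore read from these counts against that background.

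Mir148a was at 548 and 2047 CPM in replicates 1 and 2, a 3.74-fold difference (3.54 to 3.95). Mir152 was at 242 and 708 CPM and Mir148b at 117 and 193 CPM. The 3 genes of the miR-148 and miR-152 family summed to 1927 ± 1444 CPM (SD, n = 2), below the 4 members in both libraries, at 907 against 6716 CPM in replicate 1 and 2948 against 13593 CPM in replicate 2. The 3 miR-19 genes had few assigned counts, at 5.29 CPM in sum in replicate 1 and 11.8 CPM in replicate 2, and Mir19a and Mir19b-1 had mean levels of 2.27 and 5.07 CPM. Mir19b-1 and Mir19b-2 give the same mature sequence, and multimapping reads were assigned to no hairpin, so these counts do not measure the level of miR-19b.

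**Figure D5:**
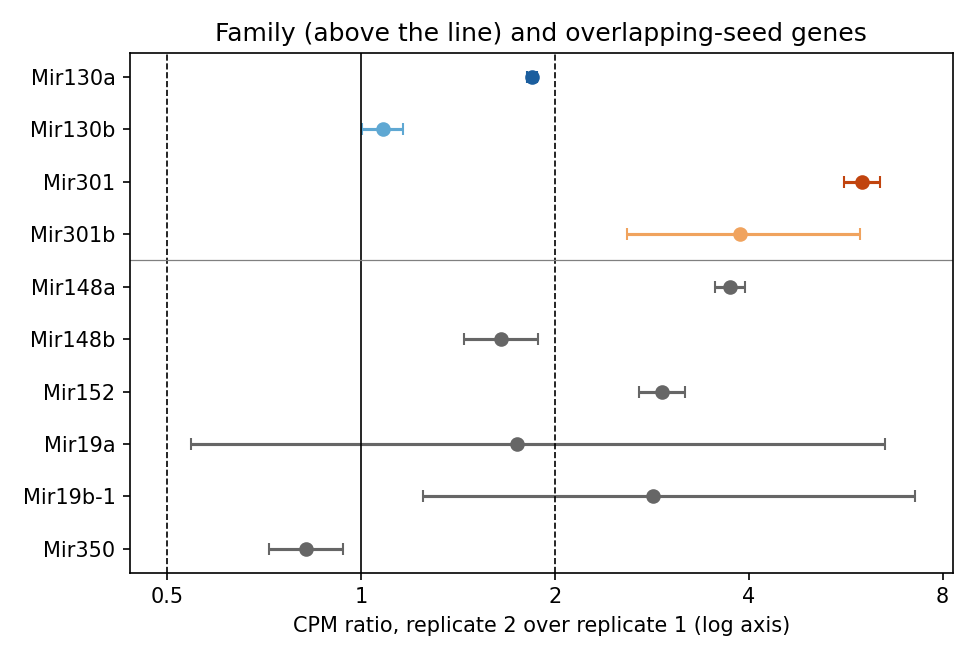
CPM ratio of replicate 2 over replicate 1 on a log axis, with exact 95% conditional intervals for counting error, for the 4 family members above the grey line and the 6 overlapping-seed genes with 10 or more counts below it; dashed lines mark 2-fold. Mir301 lies farthest to the right at 5.99, Mir148a and Mir301b lie close together at 3.74 and 3.87, and Mir350 lies to the left of 1.

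The genes nearest to each member were found by the distance between log2(CPM + 1) values over the 2 libraries, a likeness that rests on 2 values only. Nearest to Mir130a were Mir21a, at 7910 and 11784 CPM, and Mir30a, at 8518 and 11714 CPM. Mir130b lay beside Mir25, at 450 and 503 CPM, and Mir671. Mir301 had Mir148a and then Mir101b, at 426 and 1170 CPM, as its nearest genes, and the distance to Mir148a was 0.56. Mir301b had Mir34b and Mir363, at distances of 0.80 and 0.91. The distance from Mir130b to Mir25 was 0.06, so the match was closer for Mir130b than for Mir301 or Mir301b.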

How the data were processed

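MicroRNA-seq libraries from 2 biological replicates of 1 group were used. The authors deposited raw counts of reads for each miRNA gene, with no normalization, on mm10 with GENCODE M21, per the file notes deposited with them. Which aligner and counter made them is not stated in those notes. The sense-strand column was used, and 4 summary rows (57.8% and 59.1% of each file) stayed out of library totals.

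Counts were divided by the miRNA total of each library to give CPM. Mean and SD are over the 2 libraries. Shares have exact Clopper-Pearson intervals at 95% and ratios exact conditional ones. No p-value was computed: the design has no contrast, and the ratio background counts genes past 2-fold among those with 10 or more counts. This rule and the intervals were tested on simulated data with counting error alone, the error that the intervals assume. That test therefore says nothing about variation between replicates. The members and lists were chosen with earlier results of these data known. The genes named are the members, genes with the same or an overlapping seed, the 2 nearest genes by level, annotated neighbours and cell type markers; Mir350 and single markers other than Mir122 were named after their values were seen. All 2202 gene IDs matched the annotation.

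Alternatives were unstranded counts, totals of all reads or without Mir122, edgeR 4.0.16 TMM, DESeq2 1.42.0 size factors, single libraries and other filters and folds. Scripts ran under R 4.3.3 and Python 3.11.15 with SciPy 1.17.1, pandas 2.3.3, NumPy 2.4.6 and matplotlib 3.10.9.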

Additional observations from a re-analysis of the deposited data

Results flagged for a closer look

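Reads on the strand opposite to Mir130a were 6 in replicate 1 and 7 in replicate 2, above the limit of 3 counts that a count of 0 allows, in a column that no comparison above used. They made up 0.0337% and 0.0187% of the reads of both strands at that hairpin. The other 3 members had no such read in either library. A group of 2 libraries is too small to look for an outlying one.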

How the results depend on the processing

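Alternative settings gave 69 values, with single libraries and added genes of the same seed left out. Of these, 55 moved by less than the spread of the libraries, the counting interval or 1.5 times. For levels the limit was the SD of the 2 libraries, which is wide where they differ much. Mir301 thus counted among the 55 although it fell from 1313 to 539 CPM when scaled to all reads. TMM and DESeq2 factors shifted the 2 libraries slightly and in opposite directions, so mean levels could hardly move. The 55 also include shares and within-library ratios under unstranded counts, which could hardly move either. Mir130b, Mir301 and Mir301b had no opposite-strand read, and Mir130a had 6 and 7. A further 13 values moved more and 1 changed direction. That one was the replicate ratio of Mir130b, 0.983 with unstranded counts, a setting that also moved the median log2 ratio of all tested genes to -0.14. Over all settings Mir301 stayed between 5.46-fold and 6.28-fold higher in replicate 2, Mir301b between 3.52-fold and 4.06-fold and Mir130a between 1.67-fold and 1.93-fold. For these ratios the settings changed only the library totals, apart from the few opposite-strand reads of Mir130a. The ratios of the members therefore shifted together, and the ranges say nothing about the stability of a single gene. Scaled to all reads in the file in place of miRNA counts, every member was lower: the family summed to 4193 CPM, Mir130a to 3451, Mir301 to 539, Mir130b to 193 and Mir301b to 9.93; with unstranded counts Mir130b was at 632 CPM. The number of genes 2-fold or more apart, 90 as reported, was 325 with 1 or more counts and 28 at a mean of 100 CPM or more, where fewer genes were tested; it was 156 at 1.5-fold and 29 at 4-fold. Leaving out a library leaves the value of the other, from 6716 to 13593 CPM for the family and from 376 to 2251 for Mir301, and with 2 libraries this says nothing about stability. Adding the genes with the same seed, all at 0, could not move a share either. No paired analysis was possible because there is 1 group. With 30 counts in replicate 1, depth limits Mir301b most.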
